A study of Mus musculus with 30 samples.

Results

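Osteoclast cultures of 1-month-old wild-type mice gave 2 sets of libraries in this series, and the set whose titles carry the word gaiwei was compared here with the set whose titles carry no such word. The 6 libraries, 3 in each group of the 30 in the series, were taken by title alone, and the labels do not state what gaiwei stands for. In both groups bone marrow-derived macrophages of C57BL/6J mice with an intact Terc gene, which encodes the RNA template of telomerase, were grown on bone slices. M-CSF at 25 ng/ml was given with RANKL at 100 ng/ml until large multinucleated cells had formed, and poly(A) RNA was sequenced. The remaining 24 libraries came from wild-type cultures of 6 and 20 months, harvested at 2 days or with large cells, and from Terc-/- cultures of 1 and 6 months, where a second set at each age carries the mark 519, also unexplained. The unmarked replicates are numbered 1, 3 and 4 and the gaiwei-marked ones 1, 2 and 3, and values are given in that order. Whether replicates came from different animals or culture wells is not stated in the labels. The p-values therefore set a difference between groups only against the spread within groups, pooled over the 30 libraries. That spread may be technical variation.

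Osteoclasts are large cells that dissolve bone. They arise when macrophage precursors, kept alive by M-CSF, are exposed to RANKL: its receptor RANK signals through TRAF6, NF-kB and the AP-1 protein Fos to the transcription factor Nfatc1, which switches on the genes for cell fusion, acid secretion and collagen digestion. Macrophages use much of the same NF-kB machinery downstream of Toll-like and interleukin-1 receptors to produce cytokines, chemokines and acute phase proteins, and the precursors can be drawn to either programme. In whole cultures fewer cells of a type and less RNA per cell cannot be told apart.

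The deposited values were TPM, transcript shares scaled to a fixed total, which hold no sequencing depth. Between 12105 and 12790 genes reached 1 TPM in the unmarked libraries and 11270 to 11586 in the gaiwei-marked ones, where the 50 highest genes took 36.1 to 41.3% of all TPM, against 29.8 to 33.2%. A single gene, Saa3, held 3.25 to 8.19% of the TPM of the gaiwei-marked libraries and 0.0194 to 0.0578% of the unmarked ones. The groups also differed in sex-linked genes. Xist, the RNA that silences one X chromosome in females, stood at 46.6, 71.1 and 84.1 TPM in the unmarked libraries and at 0, 0 and 0.00290 TPM in the gaiwei-marked ones, and at most 0.254 TPM in any of the 27 libraries outside the unmarked 1-month wild type. The Y-linked gene Eif2s3y, which encodes a translation initiation subunit, was at 0 in all 3 unmarked libraries and at 52.9, 40.8 and 51.5 TPM in the gaiwei-marked ones. The labels give no sex, and the mark and the sex pattern cannot be told apart within this comparison, so leading values are also given against 2 other unmarked groups of the male pattern. One of them, the 6-month wild type, holds a library that stands apart. In its replicate 2 mitochondrially encoded genes took 3.30% of TPM, against 9.57% and 8.85% in replicates 1 and 4. Values against that group include this library and were not refitted without it. Terc was at 0 in 5 of the 6 libraries and at 1.13 TPM in unmarked replicate 4.

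Levels were scaled between libraries by a trimmed mean of log ratios and compared as log2(scaled TPM + 1) with limma, so that a log2 change understates that of genes with low TPM. A gene was called at an adjusted p under 0.05 (Benjamini-Hochberg over the 12614 genes that averaged 1 TPM or more), and the ± of a log2 change is its standard error with 3 libraries per group and the spread pooled over all 10 groups. Of these genes 5883 (46.6%) were called, 3113 (24.7%) higher and 2770 (22%) lower in the gaiwei-marked libraries, and 60.1% had TPM values that did not overlap between the groups. Lack of overlap in named genes is to be read beside this last share. The 15 highest and 15 lowest genes were named only where the groups did not overlap. At least 2-fold changes were found for 1188 genes that rose and 1107 that fell, and at least 16-fold changes for 43 and 26. The split depends on the scaling: with TPM as deposited 1225 genes (9.71%) were called higher and 6250 (49.5%) lower, and the median log2 change of all genes moved by -0.50, from 0.01 to -0.49. Changes are reported relative to the scaled median, and counts of a list with TPM as deposited are to be read beside these 2 shares. Counts against the unmarked 6-month wild type are to be read beside 24.3% of all genes called higher and 20.8% lower. For counts against the unmarked 1-month Terc-/- these shares were 21.3% and 16.8%.

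**Figure D1:**
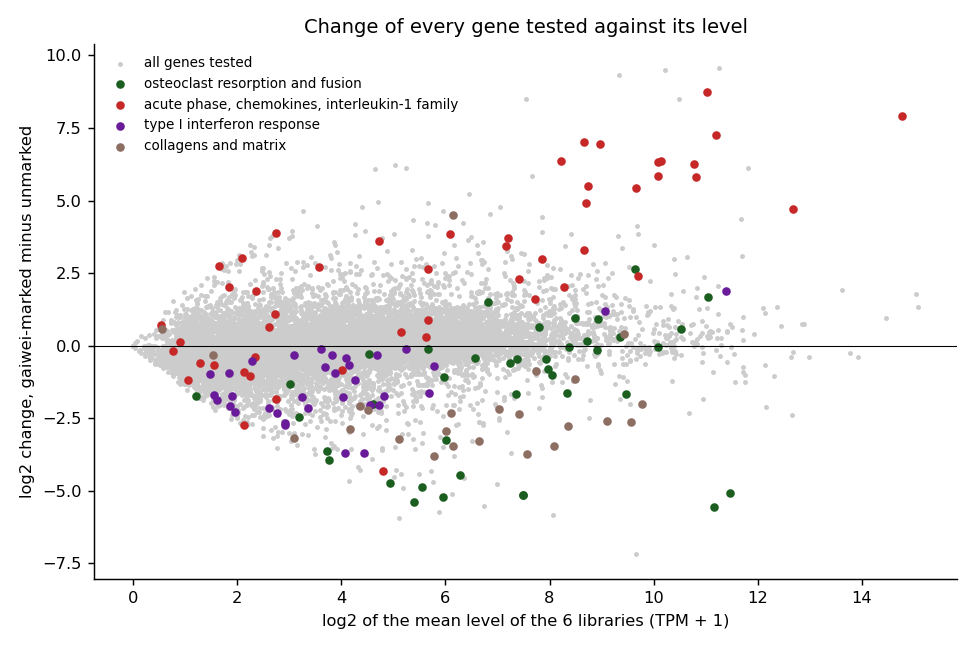
Each point is a gene: the x axis is log2 of its mean level over the 6 libraries (TPM + 1) and the y axis its log2 change, gaiwei-marked minus unmarked. Osteoclast resorption and fusion genes reach -5.54 and interferon response genes -3.69, while acute phase, chemokine and interleukin-1 family genes reach 8.75.

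Most genes that carry out bone resorption were lower in the gaiwei-marked libraries. Of 24 genes of the resorption list 16 fell, 1 rose and 7 were not called, with a median log2 change of -1.05 beside 0.01 for all genes. Ctsk, the collagen-digesting protease of the osteoclast, stood at 4859, 3998 and 4626 TPM in the unmarked libraries and 52.1, 74.4 and 66.5 TPM in the gaiwei-marked ones, a log2 change of -5.54 ± 0.28 (limma, adjusted p = 4.8e-13). Acp5, the tartrate-resistant phosphatase that osteoclast staining detects, went from 6068, 4652 and 5875 TPM to 69.96, 142 and 125 TPM (-5.09 ± 0.31, adjusted p = 6.2e-12). All 3 unmarked libraries were high and all 3 gaiwei-marked ones low for both genes. The rule that named the lowest genes required this lack of overlap, which 60.1% of all genes tested had. The window around the start site of Ctsk is printed because the gene has the lowest log2 change of the resorption list. It is the RefSeq sequence from 250 bases before to 50 bases after the start (GRCm38.p6, plus strand, chr3:95498960-95499259), with the letters TTGCNNAA, a C/EBP-like motif, in capitals where they occur on either strand, at -76 and 24 (the first base of the match, counted from the start).
Ctsk: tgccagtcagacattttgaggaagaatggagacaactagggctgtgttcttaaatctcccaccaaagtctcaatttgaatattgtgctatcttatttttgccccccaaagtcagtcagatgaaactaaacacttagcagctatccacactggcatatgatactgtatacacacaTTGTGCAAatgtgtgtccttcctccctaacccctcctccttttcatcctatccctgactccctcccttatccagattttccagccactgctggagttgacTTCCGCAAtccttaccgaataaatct

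The acid-secreting proton pump changed by subunit. Atp6v0d2, the d2 subunit that osteoclasts add to the pump, stood at 336, 338 and 384 TPM and 4.71, 5.62 and 7.73 TPM (-5.16 ± 0.26, adjusted p = 4.8e-13). The shared subunits fell less: Atp6v1b2 by 1.62, Atp6v1d by 0.80 and Atp6v1c1 by 0.59 on the log2 scale. Atp6v0c, the proteolipid of the membrane ring, was the only member called higher (0.58 ± 0.19), a call lost without unmarked replicate 3 (0.40) or 4 (0.44), and its TPM overlapped between the groups (1237 to 1890 against 1422 to 1508). Tcirg1, the a3 subunit, changed by -0.14 ± 0.25 (adjusted p = 0.68) and was not called. Among the proteins that make and move acid, the carbonic anhydrase Car2 fell from 16.3, 13.4 and 14.8 TPM to 0.924, 1.07 and 1.85 TPM (-2.44 ± 0.29), the bicarbonate exchanger Slc4a2 by 1.08, and the sodium-proton exchanger Slc9b2 by 4.45. The chloride exchanger Clcn7 changed by -0.42 ± 0.20 (adjusted p = 0.084). In each of these 3 that fell no gaiwei-marked library reached the level of any unmarked one.

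Other genes of the resorbing cell followed the same direction. The labels describe cultures with large multinucleated cells in both groups, but of the defining osteoclast markers Calcr, Oscar and Ocstamp were under 1 TPM in every gaiwei-marked library, while Ctsk (52.1 to 74.4 TPM) and Acp5 (69.96 to 142 TPM) were reduced and not near 0. Calcr, the calcitonin receptor of mature osteoclasts, was at 2.46, 2.39 and 2.96 TPM in the unmarked libraries, and was listed at 0 in 2 gaiwei-marked libraries and at 0.0604 TPM in the third. Anxa8 fell from 80.7, 78.5 and 110.4 TPM to 1.11, 1.70 and 1.24 TPM (-4.87 ± 0.25), and Rab38, a GTPase of lysosome-related organelles, by 3.63. The metallothionein Mt3 was at 119, 48.6 and 77.9 TPM and 0, 0.689 and 1.20 TPM (-5.39 ± 0.55), and the creatine kinase Ckb fell by 1.67. Not every protease of the list moved: Mmp9, a gelatinase of osteoclasts and macrophages, was at 1368, 1218 and 1348 TPM and 862, 1056 and 664 TPM with a log2 change of -0.05 ± 0.31 (adjusted p = 0.91), although with TPM as deposited it was called lower, and Mmp14 changed by -0.04 ± 0.18. Against unmarked 6-month wild-type and unmarked 1-month Terc-/- libraries, both of the male pattern, the log2 changes were -5.50 and -4.83 for Ctsk and -5.11 and -4.84 for Acp5, and the list had 16 and 18 members called lower, beside 20.8% and 16.8% of all genes.

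Cell fusion genes moved in both directions. Dcstamp and Ocstamp, the membrane proteins that precursors need to fuse, and Tspan7 fell. Dcstamp stood at 126, 113 and 124 TPM and 1.01, 1.65 and 1.84 TPM (-5.22 ± 0.30, adjusted p = 2.4e-12), Ocstamp fell by 3.92 and Tspan7 by 4.73. Itgb3, the beta-3 chain of the vitronectin receptor by which osteoclasts hold on to bone, went from 83.8, 125 and 149 TPM to 6.63, 7.77 and 7.97 TPM (-3.26 ± 0.23), and its partner Itgav fell by 1.65. Other members rose. Adam8, a membrane protease, rose from 282, 342 and 301 TPM to 1175, 1226 and 1438 TPM (2.63 ± 0.14, adjusted p = 1.5e-12), and the self-marker Cd47 rose by 1.51. Of the 16 fusion genes 6 rose and 9 fell, and with TPM as deposited 3 rose and 9 fell.

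**Figure D2:**
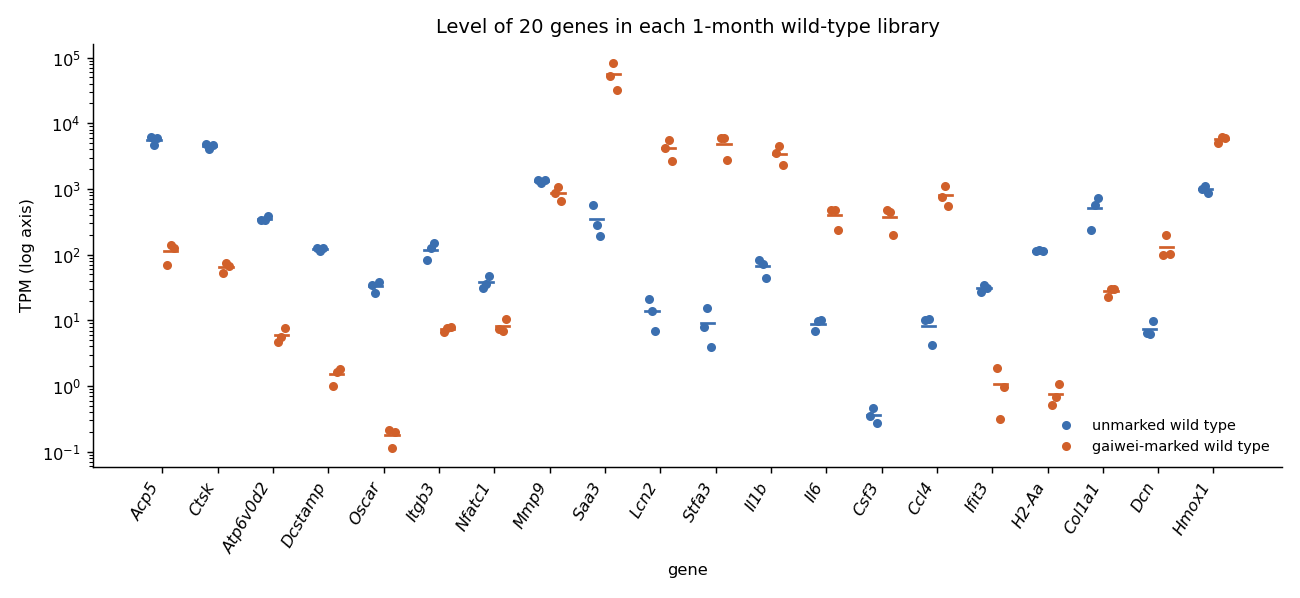
TPM on a log axis of 20 genes in the 3 unmarked (blue) and 3 gaiwei-marked (orange) libraries, with the group mean as a line. No gene shown has groups that overlap in TPM, although the change of Mmp9 was not called after scaling. Oscar (26.3 to 38.97 against 0.114 to 0.218) lies low and Csf3 (0.275 to 0.457 against 201 to 482) high in the gaiwei-marked libraries.

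The receptors that feed the osteoclast programme moved in both directions. Tnfrsf11a, the RANKL receptor RANK, fell from 26.02, 31.03 and 39.03 TPM to 11.8, 8.04 and 15.9 TPM (-0.84 ± 0.21, adjusted p = 0.0021), while Csf1r, the M-CSF receptor, had a log2 change of 0.63 ± 0.16 with overlapping TPM (388 to 518 against 401 to 549). Oscar, the collagen receptor that gives osteoclasts their costimulatory signal, was at 34.1, 26.3 and 38.97 TPM and 0.218, 0.114 and 0.201 TPM (-4.66 ± 0.29), and Siglec15 fell by 2.38. Their signalling adaptors instead rose: Fcer1g, with which Oscar pairs, went from 764, 499.7 and 504 TPM to 2179, 2182 and 2000.2 TPM (2.45 ± 0.24), Tyrobp (DAP12) rose by 1.66 and the kinase Syk by 1.05. The kinase Src, needed for the resorbing surface, fell by 0.76. Of 20 receptors and adaptors 12 rose and 5 fell, and with TPM as deposited 5 rose and 6 fell. Against the unmarked 1-month Terc-/- 7 rose and 4 fell, and the median log2 change of the list moved from 0.61 to 0.10.

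The transcription factors of the osteoclast moved in both directions. Nfatc1 stood at 31.3, 36.03 and 46.5 TPM and 7.44, 6.80 and 10.5 TPM (-1.54 ± 0.19, adjusted p = 5.4e-07), and no gaiwei-marked library reached an unmarked one. Jdp2, an AP-1 family repressor, fell by 2.09, Ppargc1b, a driver of mitochondrial genes, by 1.79, Prdm1 (Blimp1), which silences inhibitors of the programme, by 1.13, and Mitf by 0.73. Fos changed by -0.67 ± 0.29 (adjusted p = 0.057) and was not called. Id2, Junb and Esrra rose by 1.95, 1.35 and 1.14. Of 20 factors 9 rose and 6 fell, and with TPM as deposited 3 rose and 8 fell. Against the unmarked 1-month Terc-/- 4 rose and 9 fell, and the median turned from 0.39 to -0.24.

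Inhibitors of osteoclast formation were higher in several cases. Irf8, a factor that holds precursors in the macrophage state, stood at 37.7, 43.97 and 41.99 TPM against 91.4, 92.8 and 102 TPM (1.77 ± 0.10, adjusted p = 2.2e-12). Socs1 and Socs3, feedback inhibitors of cytokine receptors, rose from 1.28, 0.838 and 0.870 TPM to 34.4, 55.3 and 27.3 TPM (4.77 ± 0.25) and from 38.1, 36.2 and 30.9 TPM to 228, 308 and 241 TPM (3.42 ± 0.20). All 3 had groups that did not overlap, as had 60.1% of all genes tested. Tnfrsf11b (osteoprotegerin), the soluble decoy for RANKL, fell by 1.57. Of 17 tested genes of this list 10 rose and 3 fell, 5 and 6 with TPM as deposited, and 6 and 2 against the unmarked 1-month Terc-/-, where the median was -0.04 instead of 0.68. The count includes Rgs12, a signalling protein known to promote osteoclast formation rather than inhibit it, which fell by 1.30.

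Podosome genes, which build the actin ring of the osteoclast, fell in 9 of 19 cases and rose in 4, and 14 fell and 2 rose with TPM as deposited. Vcl (vinculin) went from 30.5, 96.3 and 89.98 TPM to 8.68, 11.3 and 15.7 TPM (-1.83 ± 0.31), Cttn (cortactin) from 74.9, 131 and 126 TPM to 16.6, 15.7 and 18.9 TPM (-2.03 ± 0.15), and the scaffold Sh3pxd2a fell by 2.02. Unmarked replicate 1 was lower than the other unmarked libraries for all 3 genes and still above every gaiwei-marked library. The leukocyte genes Rac2, a GTPase, and Fermt3 (kindlin-3) rose by 1.73 and 1.39. Of 12 tested signals that osteoclasts send to bone-forming cells 4 rose and 5 fell. Cthrc1, one of them, fell from 28.9, 45.2 and 77.9 TPM to 1.82, 2.50 and 1.92 TPM (-3.52 ± 0.31), and Wnt10b and Efnb2 fell by 1.91 and 1.55, while Tgfb1 and Igf1 rose by 1.05 and 1.17. Against the unmarked 1-month Terc-/- Igf1 turned to -0.90, and the change of Cthrc1 was -0.09.

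Acute phase and alarm proteins were among the genes with the highest rises. Of 14 tested genes 11 rose and 1 fell, with a median log2 change of 3.65, and 11 and 1 were also counted with TPM as deposited. Saa3, a serum amyloid made by activated macrophages, stood at 578, 283 and 194 TPM and 51763, 81892 and 32537 TPM (7.93 ± 0.68, adjusted p = 1.4e-09). Lcn2, the iron-siderophore trap lipocalin-2, went from 21.1, 14.1 and 6.78 TPM to 4174, 5639 and 2689 TPM (8.75 ± 0.56, adjusted p = 1.5e-11). Gaiwei-marked replicate 3 was the lowest of its group for both genes and still far above every unmarked library. The windows around their start sites are printed because they lead the list, in the same form as that of Ctsk, both on the minus strand (Saa3, chr7:46715627-46715926, and Lcn2, chr2:32387690-32387989). Capitals mark TTGCNNAA at -99 for Saa3 and -216 for Lcn2, and in Saa3 also an interferon-element-like motif (GAAA, any 2 bases, GAAA) at -125.
Saa3: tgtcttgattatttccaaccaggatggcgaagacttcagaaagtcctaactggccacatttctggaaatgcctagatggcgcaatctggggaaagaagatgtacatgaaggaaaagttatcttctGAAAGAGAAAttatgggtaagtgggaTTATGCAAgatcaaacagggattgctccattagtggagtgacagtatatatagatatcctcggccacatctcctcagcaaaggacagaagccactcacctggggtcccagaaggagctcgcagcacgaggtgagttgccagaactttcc
Lcn2: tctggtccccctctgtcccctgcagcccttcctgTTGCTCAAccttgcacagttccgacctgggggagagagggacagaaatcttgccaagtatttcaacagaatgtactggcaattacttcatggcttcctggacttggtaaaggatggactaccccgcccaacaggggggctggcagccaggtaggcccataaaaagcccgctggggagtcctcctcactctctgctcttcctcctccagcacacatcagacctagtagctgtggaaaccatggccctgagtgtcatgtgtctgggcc

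Slpi, an inhibitor of leukocyte proteases, rose from 54.9, 56.8 and 24.02 TPM to 4745, 6051 and 3103 TPM (7.27 ± 0.56), and the haemoglobin-binding protein Hp from 37.2, 27.4 and 12.9 TPM to 564, 1384 and 535 TPM (5.49 ± 0.52). S100a8, a calcium-binding alarm protein, went from 50.8, 57.6 and 17.8 TPM to 2412, 2498 and 1434 TPM (6.31 ± 0.59), whereas its usual partner S100a9 was at 0 in 5 of the 6 libraries and at 2.65 TPM in gaiwei-marked replicate 3. The formyl peptide receptors Fpr1 and Fpr2 rose by 3.30 and 3.69, and the complement genes C3 and Cfb by 2.29 and 3.60. Steap4, the member that fell, changed by -1.18 ± 0.32. Genes outside the list with the same behaviour were Stfa3, a stefin of the cysteine protease inhibitor family, at 8.03, 15.6 and 3.96 TPM and 6045, 5878 and 2758 TPM (9.55 ± 0.71), and U90926, at 7.57, 2.58 and 1.53 TPM and 3125, 2966 and 1037 TPM (9.49 ± 0.61). The whey acidic protein genes Wfdc17 and Wfdc21 rose by 6.12 and 6.14. Stefins form a family of near-identical copies, so the share of reads that belongs to Stfa3 itself is uncertain.

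The interleukin-1 system rose from its ligands to its sensor. Il1b stood at 81.9, 72.8 and 44.1 TPM and 3558, 4461 and 2334 TPM (6.26 ± 0.51, adjusted p = 6.3e-10) and Il1a at 11.1, 18.3 and 5.45 TPM and 969, 1251 and 733 TPM (6.96 ± 0.53). Both are made by activated macrophages, and both groups of values were far apart. The receptor antagonist Il1rn rose from 59.7, 106 and 54.8 TPM to 325, 509.6 and 336 TPM (3.003 ± 0.31), the signalling receptor Il1r1 from 0.388, 0.940 and 1.04 TPM to 4.57, 5.73 and 2.88 TPM (2.03 ± 0.21), and the inflammasome sensor Nlrp3 by 2.63. The decoy receptor Il1r2 moved the other way, from 6.79, 7.35 and 6.03 TPM to 0.125, 0 and 0.0659 TPM (-2.74 ± 0.32, adjusted p = 1.6e-07). Against the unmarked 1-month Terc-/- its change was 0.01. Of 14 tested members 10 rose and 3 fell, and 8 rose and 3 fell with TPM as deposited.

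Csf3, which encodes the granulocyte growth factor G-CSF, was close to absent in the unmarked libraries at 0.353, 0.457 and 0.275 TPM and stood at 482, 438 and 201 TPM in the gaiwei-marked ones (8.503 ± 0.45, adjusted p = 7.9e-13). Il6 went from 6.86, 9.85 and 10.1 TPM to 473, 484 and 235 TPM (5.84 ± 0.32), and Il12a, the p35 chain of interleukin-12, from 0.190, 0.176 and 0 TPM to 75.6, 79.2 and 35.4 TPM (6.23 ± 0.31). Osm, a cytokine of the interleukin-6 family, rose by 3.30. For Csf3, Il6 and Il12a gaiwei-marked replicate 3 was the lowest of its group and far above every unmarked library. Of 19 tested cytokines and growth factors of this list 14 rose and 2 fell, 11 and 2 with TPM as deposited. Csf1, which encodes M-CSF and was chosen after its values were seen, fell from 163, 391 and 401 TPM to 58.5, 64.99 and 67.5 TPM (-1.62 ± 0.32), with a change of 0.34 (adjusted p = 0.43) against the unmarked 1-month Terc-/-.

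Of 22 tested chemokines 14 rose and 3 fell (14 and 6 with TPM as deposited), and against the unmarked 1-month Terc-/- 17 rose and none fell. Cxcl1, a neutrophil attractant, went from 12.1, 9.73 and 6.47 TPM to 718, 686 and 361 TPM (6.36 ± 0.42, adjusted p = 1.9e-11), and its relatives Cxcl2 and Cxcl3 rose by 5.84 and 5.81. Ccl4 stood at 10.3, 10.3 and 4.28 TPM and 761, 1092 and 544 TPM (7.01 ± 0.54), Ccl3 at 51.3, 47.6 and 22.6 TPM and 2312, 2804 and 1569 TPM (6.37 ± 0.45), and the monocyte attractant Ccl2 at 46.3, 63.2 and 48.3 TPM and 1344, 1910 and 1457 TPM (5.45 ± 0.32). None of these groups overlapped, as for 60.1% of all genes tested. For Cxcl1, Ccl4 and Ccl3 the rule that named the highest genes required it. Pf4, the platelet factor 4 that macrophages also make, was among the highest genes of the gaiwei-marked libraries at 10721, 14813 and 11519 TPM, against 909.8, 885 and 434 TPM (4.70 ± 0.41). Ccl22, a product of dendritic cells and macrophages that binds Ccr4, fell from 62.4, 59.5 and 35.4 TPM to 0.347, 1.61 and 1.495 TPM (-4.30 ± 0.44), and the stromal chemokine Cxcl12 by 1.83. Of the 9 tested receptors 3 rose and 4 fell (1 and 5 as deposited), among them Ccr7, the receptor of migrating dendritic cells, which fell by 3.10 on the log2 scale. The window of Cxcl1 (plus strand, chr5:90890995-90891294) is shown for its kappa-B-like letters (GGGA, any 2 bases, TTCC), of which 2 overlapping matches, at -71 and -70, are in capitals.
Cxcl1: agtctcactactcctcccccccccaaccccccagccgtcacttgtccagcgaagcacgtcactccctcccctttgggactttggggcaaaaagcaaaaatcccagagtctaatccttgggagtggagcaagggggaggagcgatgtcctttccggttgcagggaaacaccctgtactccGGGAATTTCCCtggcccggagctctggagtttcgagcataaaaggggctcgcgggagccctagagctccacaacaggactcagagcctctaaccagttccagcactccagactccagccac

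Transcripts of the NF-kB pathway list were higher almost throughout. Of 21 genes 19 rose and none fell, with a median log2 change of 1.21, and 13 rose and 1 fell with TPM as deposited. Against the unmarked 1-month Terc-/- 14 rose and none fell, with a median of 0.69. Against the unmarked 6-month wild type 19 rose and none fell, with a median of 1.44. The members with the smallest p included feedback genes. Zc3h12a (Regnase-1), which destroys cytokine messages, went from 16.6, 17.8 and 14.7 TPM to 75.4, 88.1 and 79.1 TPM (2.81 ± 0.15, adjusted p = 1.1e-12), the A20 partner Tnip1 from 72.7, 79.96 and 78.04 TPM to 168, 186 and 178 TPM (1.77 ± 0.10), and Nfkbiz, an atypical inhibitor that activates secondary targets, from 11.2, 20.5 and 17.5 TPM to 60.3, 70.5 and 59.6 TPM (2.49 ± 0.16). Sod2, the mitochondrial superoxide dismutase, rose by 2.87. None of these 4 genes had groups that overlapped, as for 60.1% of all genes tested. Sensors of microbes rose too, 14 of 19 against 1 that fell (9 and 2 as deposited): Tlr2 went from 139, 153 and 135 TPM to 374, 364 and 393 TPM (1.98 ± 0.13), the endotoxin co-receptor Cd14 from 286, 258 and 183 TPM to 1862, 2129 and 1418 TPM (3.47 ± 0.28), and the lectin receptor Clec4e (Mincle) and Tlr1 rose by 3.10 and 1.93. The exception, named after its values were seen, was the beta-glucan receptor Clec7a (dectin-1), at 161, 230.1 and 135 TPM and 22.8, 32.5 and 38.7 TPM (-1.87 ± 0.26), which turned to 0.83 against the unmarked 6-month wild type.

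Enzymes for inflammatory mediators rose in 10 of 13 tested cases and fell in 1, 9 and 2 with TPM as deposited. Nos2, the inducible nitric oxide synthase, went from 5.02, 7.89 and 4.35 TPM to 161, 109 and 76.7 TPM (4.64 ± 0.45, adjusted p = 9.0e-09) and its arginine transporter Slc7a2 from 7.72, 12.8 and 12.2 TPM to 133, 174 and 137 TPM (4.23 ± 0.25). Ptges, which makes prostaglandin E2, rose from 14.4, 15.01 and 8.96 TPM to 178, 292 and 179 TPM (4.54 ± 0.33). Hmox1, the haem-degrading enzyme, was already abundant at 1003, 1108 and 865 TPM and reached 4974, 6068 and 5988 TPM (3.10 ± 0.19). No gaiwei-marked library fell within the unmarked range for any of the 4, and 60.1% of all genes tested had no overlap.

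Type I interferon response genes went against this rise. Of 34 tested genes 25 fell and 2 rose, with a median log2 change of -1.66, and 32 fell and 2 rose with TPM as deposited. Ifit3, an antiviral protein of the group, stood at 27.1, 34.3 and 30.7 TPM and 1.90, 0.316 and 0.972 TPM (-3.68 ± 0.34, adjusted p = 4.8e-09), and Rtp4 at 47.6, 36.9 and 35.5 TPM and 0.892, 1.52 and 1.93 TPM (-3.69 ± 0.35). Ifi44 fell by 2.09 and Ifit3b by 2.29. Ifit3 and Ifit3b are near-identical copies, so the division of reads between them is uncertain, but both were lower in every gaiwei-marked library. The genes that rose, named after their values were seen, were the membrane proteins Bst2 (tetherin), from 524, 366 and 374 TPM to 609.6, 595 and 723 TPM, and Ifitm3, from 1792, 1509.6 and 1349 TPM to 4295, 4062 and 3082 TPM. Against the unmarked 6-month wild type 18 of the 34 were called lower, and against the unmarked 1-month Terc-/- 22. The Ifit3 window (plus strand, chr19:34583279-34583578) has interferon-element-like letters at -156 and -122, read on the other strand, and an AP-1-like TGANTCA at -56, all in capitals.
Ifit3: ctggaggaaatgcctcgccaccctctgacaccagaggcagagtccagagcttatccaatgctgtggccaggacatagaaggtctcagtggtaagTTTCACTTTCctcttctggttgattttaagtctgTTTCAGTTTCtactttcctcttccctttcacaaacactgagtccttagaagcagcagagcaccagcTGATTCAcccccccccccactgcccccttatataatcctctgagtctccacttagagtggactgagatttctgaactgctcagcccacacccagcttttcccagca

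These letters were counted in the same 300-base windows of all genes, as a description and with no test. Matches on both strands were counted, overlapping ones included, and 9518 of the genes tested had a window in the RefSeq table. The interferon-element-like letters were present in 3.44% of all 32851 windows, in 3.92% of the genes tested, and in 9 of the 18 interferon genes that fell and had a window. The kappa-B-like letters were present in 1.47% of all windows, in 1.76% of the genes tested and in 4 of 29 genes that rose at least 16-fold (13.8%), and in none of 14 that fell at least 16-fold. TTGCNNAA was present in 10.8% of all windows, 10.02% of the genes tested, 8 of the 29 (27.6%) and 1 of the 14. TGANTCA was present in 7.81% of all windows, 6.50% of the genes tested, 6 of the 29 and none of the 14. The interferon-element-like letters were also present in 3 of the 29 and in none of the 14. Of the 18 interferon genes, 5 had TGANTCA, 1 had the kappa-B-like letters and none had TTGCNNAA or the E-box, CACGTG. The E-box was present in 7.15% of all windows and in a larger share of the genes tested (1142 of 9518). It was present in 2 of the 29 (6.9%) and in none of the 14. A match is a stretch of letters and not a shown binding site. H2-Aa and Il1b had no match to any of the motifs in their windows. Acp5 has 3 windows, and the single one read for matches had none.

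**Figure D3:**
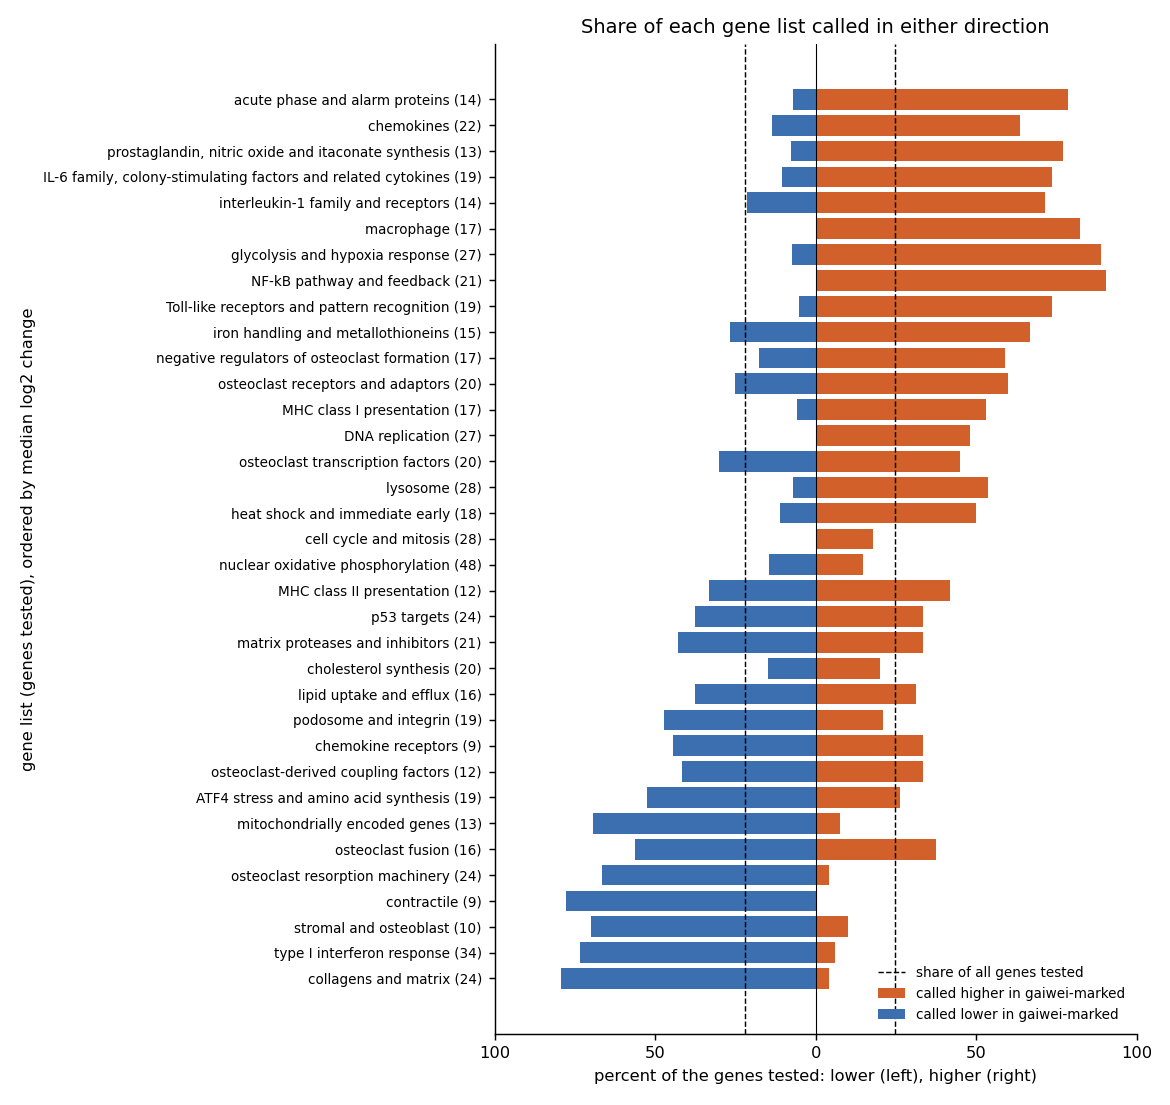
Percent of the tested genes of each list called higher (orange, right) or lower (blue, left) in the gaiwei-marked libraries, ordered by median log2 change, with the number of genes tested in parentheses and the share of all genes tested as dashed lines (24.7% higher, 22% lower). Acute phase proteins, chemokines and NF-kB genes extend to the right, and matrix, interferon, contractile and resorption genes to the left.

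Genes of antigen presentation on MHC class II fell in part. H2-Aa, the alpha chain of the I-A molecule, stood at 114, 116 and 115 TPM and 0.510, 0.682 and 1.08 TPM (-5.74 ± 0.44, adjusted p = 2.1e-10), H2-Eb1 at 74.4, 58.8 and 75.7 TPM and 0.694, 0.899 and 1.02 TPM (-4.89 ± 0.42), and the invariant chain Cd74 at 331, 257 and 282 TPM and 15.7, 12.4 and 14.8 TPM (-3.70 ± 0.39). Each of the 3 was lower in every gaiwei-marked library by a wide margin. For H2-Aa and H2-Eb1 the rule that named the lowest genes required a lack of overlap. H2-Ab1, the partner of H2-Aa, went from 86.98, 72.5 and 76.4 TPM to 31.7, 38.5 and 22.2 TPM (-0.79 ± 0.41, adjusted p = 0.12), and was not called. The costimulatory molecules Cd40 and Cd86 rose by 2.03 and 1.14. Of 12 tested members 5 rose and 4 fell, 3 and 6 with TPM as deposited, and 8 and 2 against the unmarked 1-month Terc-/-. The other unmarked groups differ in this set: H2-Aa stood at 94.9 to 156 TPM in the 6-month unmarked libraries of wild type but at 2.11 to 12.9 TPM in the unmarked 1-month Terc-/-, so that the change of H2-Aa was -6.00 against the first and -1.54 (adjusted p = 0.0075) against the second. Class I genes were higher in 9 of 17 cases and lower in 1, with a median of 0.54 that turned to -0.02 with TPM as deposited and was 0.05 against the unmarked 1-month Terc-/-, where 5 were higher and 3 lower. The class I activator Nlrc5 rose by 1.15 and H2-M3 by 1.31.

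Macrophage markers were higher. Of 17 tested 14 rose and none fell (12 and 1 with TPM as deposited), and the summed level of the list was 49940 to 60400 TPM in the gaiwei-marked libraries against 27550 to 33430 TPM. The unmarked Terc-/- groups came closer to the gaiwei-marked level, with sums of 43160 to 47520 TPM at 1 month and 42590 to 49220 TPM at 6 months. Against the unmarked 1-month Terc-/- the median log2 change was 1.145 instead of 1.369. Adgre1, which encodes the F4/80 antigen, went from 223, 336 and 273 TPM to 1014, 1221 and 1383 TPM (2.71 ± 0.21, adjusted p = 2.4e-10), the Fc receptor Fcgr1 from 12.1, 17.4 and 14.8 TPM to 47.3, 59.5 and 57.4 TPM (2.39 ± 0.19), and Itgam (CD11b) from 188, 342 and 293 TPM to 681, 754 and 868 TPM (2.10 ± 0.17). The 2 groups did not overlap for these 3 genes. Some markers of other cells moved as well. The summed neutrophil list was 5189 to 9694 TPM against 1363 to 1476 TPM, carried by Lcn2, S100a8 and Mmp8. Of its 17 genes 7 were tested, of which 5 rose and 0 fell (5 and 1 with TPM as deposited). The granule genes Ngp, Elane and Mpo, named after their values were seen, stayed under the 1 TPM mean needed for testing. S100a9 was at or near 0. The summed erythroid and megakaryocyte list was 10880 to 15070 TPM against 456 to 944 TPM, nearly all of it Pf4, with no haemoglobin gene tested. Dendritic cell markers summed to 28.3 to 36.2 TPM against 204 to 260 TPM, with all 4 tested members lower, but to 51.3 to 119.9 TPM in the unmarked 1-month Terc-/-, against which 1 of the 4 was called lower and the median moved from -2.64 to -0.60. The summed levels were also lower for T and NK cell markers, at 0.517 to 0.859 TPM against 10.1 to 15.1 TPM, where Trac was the only one tested. What part such cells had in the changes was not tested.

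Collagens and other matrix genes fell together. Of 24 tested genes 19 fell and 1 rose, with a median log2 change of -2.47, and 20 fell with TPM as deposited. Col1a1, the main chain of type I collagen, stood at 233, 577 and 735 TPM and 22.6, 29.8 and 30.1 TPM (-3.47 ± 0.36, adjusted p = 2.6e-08), Postn (periostin) at 99.4, 276 and 723 TPM and 11.4, 15.7 and 12.4 TPM (-3.72 ± 0.44), and the proteoglycan Bgn at 576, 1076 and 1329 TPM and 94.1, 107 and 108 TPM (-2.60 ± 0.31). Unmarked replicate 1 was the lowest of its group for all 3 and still several times above every gaiwei-marked library, and without it 20 of the 24 fell. The exception was Dcn (decorin), another small proteoglycan, which rose from 6.47, 6.12 and 9.85 TPM to 98.2, 196 and 102 TPM (4.49 ± 0.43, adjusted p = 7.8e-09). Summed stromal and osteoblast markers were 378 to 513 TPM against 1474 to 3368 TPM, and contractile markers, which label myofibroblasts, 765 to 842 TPM against 2720 to 3930 TPM, with 7 of 9 tested contractile genes lower, among them Acta2 (-2.02 ± 0.42) and Cald1 (-1.78 ± 0.35). The genes Crabp2, a retinoic acid carrier, at 103, 318 and 319 TPM and 3.35, 6.27 and 4.71 TPM (-4.77 ± 0.40), Mfap5 (-4.33 ± 0.42) and Cd248 (-4.51 ± 0.44) behaved alike, and Cd109 and Cyp2s1, outside any list, fell by 4.54 and 4.43.

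The matrix result depended on which unmarked group it was set against. Against the unmarked 6-month wild type the median of the matrix list was -2.27 and 20 of 24 genes were called lower, but against the unmarked 1-month Terc-/- it was 0.16 and 1 was called lower and 5 higher. Col1a1 stood at 28.1 to 67.5 TPM in those Terc-/- libraries, at 272 to 402 TPM in the 6-month wild type and at 585 to 711 TPM in the 6-month cultures of 2 days. The contractile median likewise moved from -1.31 to 0.57, and that of the stromal and osteoblast markers from -1.51 to 0.04. The resorption list kept its direction in both, with medians of -1.002 and -1.56, and so did the acute phase list (4.11 and 3.73).

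Proteases that cut matrix moved in both directions, 7 of 21 up and 9 down (7 and 13 with TPM as deposited). Against the unmarked 1-month Terc-/- 11 rose and 2 fell, and the median moved from -0.05 to 1.04. Mmp13, a collagenase, rose from 26.1, 37.8 and 21.2 TPM to 578, 456 and 264 TPM (4.43 ± 0.39, adjusted p = 2.0e-09) and the neutrophil collagenase Mmp8 from 31.99, 68.5 and 28.6 TPM to 409, 465 and 376 TPM (3.93 ± 0.36). The plasminogen activator inhibitor Serpinb2 went from 111, 171 and 108 TPM to 1588, 1769.9 and 1143 TPM (4.11 ± 0.32), and the urokinase receptor Plaur rose by 2.33. All 4 had groups that did not overlap, as had 60.1% of all genes tested.

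Genes of glycolysis and the hypoxia response rose in 24 of 27 tested cases and fell in 2, with a median log2 change of 1.34 (20 and 2 with TPM as deposited). Slc16a3, the lactate exporter MCT4, went from 99.9, 129 and 112 TPM to 458, 485 and 481 TPM (2.64 ± 0.15, adjusted p = 2.5e-12), the prolyl hydroxylase Egln3 from 12.6, 15.7 and 14.6 TPM to 62.7, 78.5 and 64.1 TPM (2.75 ± 0.20), and Pfkfb3, which accelerates glycolysis, from 19.2, 32.7 and 35.1 TPM to 86.1, 119 and 102 TPM (2.39 ± 0.19). Aldoc, an aldolase, rose by 1.76. Every gaiwei-marked library lay above every unmarked one for these genes, and 60.1% of all genes tested had no overlap in either direction. Respiratory chain genes of the mitochondrial genome fell instead. Of 13 mitochondrially encoded genes 9 fell and 1 rose, their share of all TPM being 3.13 to 4.25% against 8.06 to 9.22%. With TPM as deposited 11 fell, against the unmarked 6-month wild type 7, against the unmarked 1-month Terc-/- 6 and with only the compared libraries fitted 6, and none rose in these settings. Among unmarked large-cell libraries the share was also low in 6-month wild-type replicate 2 (3.30%). It was 6.81 to 7.10% in the unmarked 1-month Terc-/- and 4.90 to 6.53% in the unmarked 6-month Terc-/-. The complex I subunit mt-Nd5 went from 2055, 3978 and 4016 TPM to 499.8, 466 and 921 TPM (-1.84 ± 0.23), and mt-Nd4 fell by 0.90. mt-Atp8 fell by 2.38 while mt-Atp6, named after its values were seen, rose by 0.69 (0.48 and not called without unmarked replicate 4), and as these 2 genes overlap on the same transcript the division of their reads is uncertain. For 48 nuclear genes of oxidative phosphorylation the counts depended on the setting, and no direction is given: 7 rose and 7 fell, 3 and 31 with TPM as deposited, 14 and 4 without unmarked replicate 1, 3 and 8 without unmarked replicate 3 or 4, 1 and 19 against the unmarked 6-month wild type, 2 and 9 against the unmarked 1-month Terc-/-, and 16 and 12 without replicate 2 of the unmarked 6-month wild type.

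Iron genes moved in both directions. Besides Hmox1, the transporter Slc11a1 (NRAMP1), which moves iron out of phagosomes, rose from 125, 142 and 170.2 TPM to 454, 535 and 617 TPM (2.45 ± 0.17, adjusted p = 3.1e-11), and Tfrc, the transferrin receptor for iron uptake, fell from 196, 227 and 279 TPM to 26.3, 20.7 and 31.2 TPM (-2.56 ± 0.25). Of 15 iron and metallothionein genes 10 rose and 4 fell, and with TPM as deposited 6 rose and 5 fell and the median moved from 0.94 to 0.36. The amino acid genes controlled by ATF4 fell in 10 of 19 cases and rose in 5, but against the unmarked 1-month Terc-/- 6 fell and 4 rose, and the median was -0.10 instead of -0.66. Phgdh, the first enzyme of serine synthesis, went from 50.3, 75.2 and 69.8 TPM to 4.73, 3.73 and 5.39 TPM (-3.05 ± 0.30) and the amino acid transporter Slc7a5 from 13.1, 27.1 and 25.04 TPM to 2.13, 1.73 and 2.71 TPM (-2.34 ± 0.16), while its partner chain Slc3a2 rose by 1.88. Cebpb, a transcription factor that binds C/EBP letters, rose from 20.9, 10.4 and 23.1 TPM to 166, 150.2 and 144 TPM (3.65 ± 0.35). All 6 of these genes had groups without overlap. Lysosomal genes depended on the scale and on the unmarked group, and no direction is given for them: 15 of 28 rose and 2 fell, 3 rose and 10 fell with TPM as deposited, where all genes had 9.71% and 49.5%, and 4 rose and 10 fell against the unmarked 1-month Terc-/-.

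Of 28 cell cycle and mitosis genes 5 rose and none fell (0 and 3 with TPM as deposited), and of 27 DNA replication genes 13 rose and none fell (2 and 3 as deposited). The first count was 2 without gaiwei-marked replicate 1, 2 (and 1 lower) without gaiwei-marked replicate 3, 3 without unmarked replicate 3 or 4, 1 (and 2 lower) against the unmarked 6-month wild type and 2 against the unmarked 1-month Terc-/-. The replication count was 8 without unmarked replicate 4, 4 (and 1 lower) against the unmarked 6-month wild type and 8 (and 2 lower) against the unmarked 1-month Terc-/-. Pcna, the sliding clamp of replication, stood at 158, 136 and 129 TPM and 217, 163 and 219.5 TPM (1.07 ± 0.15). Gaiwei-marked replicate 2 was the lowest of its group in every tested gene of both lists. Of 24 p53 targets 8 rose and 9 fell, 4 and 14 with TPM as deposited. The death receptor Fas rose from 7.38, 7.68 and 9.57 TPM to 27.7, 29.04 and 22.97 TPM (2.14 ± 0.22), while the cell death gene Pmaip1 (Noxa) fell from 40.04, 69.8 and 83.2 TPM to 8.26, 8.25 and 10.7 TPM (-2.10 ± 0.19).

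The series holds a second marked set of the same age, the 519-marked Terc-/- libraries, and their difference from unmarked Terc-/- libraries shares no library with the comparison above. At 1 month that difference called 2405 genes higher (19.1%) and 1861 lower (14.8%). Of the genes higher with the gaiwei mark 1752 were also higher with 519, which is 56.3% of the first list and 72.9% of the second. Of those lower 1255 were shared, 45.3% and 67.4%, and 56 genes were called in opposite directions. The gaiwei-marked mean profile correlated with the 519-marked ones at r = 0.988 (1 month) and 0.985 (6 months) over genes, and with the unmarked 1-month wild type at r = 0.908, which describes these group means and is no test.

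**Figure D4:**
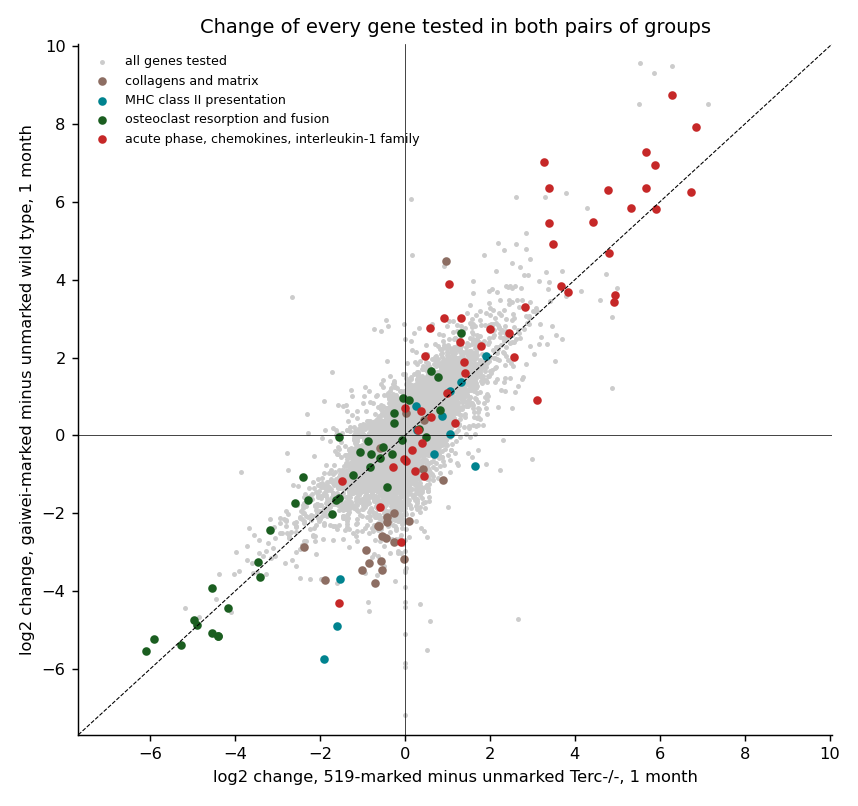
Log2 change of each gene with the gaiwei mark in wild type (y axis) against that with the 519 mark in Terc-/- (x axis), both at 1 month, with equal changes on the dashed line. Ctsk and Acp5 lie near the line, Csf3, Ccl4 and Stfa3 above it, and most matrix genes and H2-Aa below it.

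The difference between the 2 effects was called for 1345 genes (10.7%), 635 above (5.03%) and 710 below 0 (5.63%). The count depended on single libraries: it was 2337 without replicate 2 of the unmarked 6-month wild type, which stands apart from its group and enters this difference only through the estimate of spread, and 887 without replicate 1 of the unmarked 1-month Terc-/- group. In the resorption list 3 of 24 genes had a called difference, and neither Ctsk (-5.54 and -6.11, difference 0.57 ± 0.39, adjusted p = 0.41) nor Acp5 (-5.09 and -4.55, difference -0.54 ± 0.44, adjusted p = 0.51) was among them. Standard errors of this size do not exclude a moderate difference. Saa3 and Il1b rose with both marks (7.93 and 6.85, 6.26 and 6.73), and their differences were not called. Some inflammatory genes rose more with gaiwei than with 519 at 1 month: the difference was 3.01 ± 0.63 for Csf3 (adjusted p = 0.0034), 3.75 ± 0.76 for Ccl4, 4.02 ± 1.01 for Stfa3, 3.52 ± 0.68 for Wfdc17 and 3.20 ± 0.86 for U90926, the last not called without unmarked replicate 4 (2.78) or gaiwei-marked replicate 2 (2.89). At 6 months the 519 effect was 5.70 for Csf3, 3.61 for Ccl4, 4.99 for Stfa3, 2.56 for Wfdc17 and 7.01 for U90926, and differences from it were not tested. In TPM the 6-month 519-marked libraries overlapped the gaiwei-marked ones for Csf3 (456 to 541), Stfa3 (4332 to 5001) and U90926 (2807 to 3071). In the NF-kB list 8 of 21 genes had a called difference, all above 0.

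Matrix and MHC class II genes often differed between the effects. Of 24 matrix genes 18 had a called difference, 17 of them below 0. Col1a1 changed by -3.47 with gaiwei and -1.005 with 519 (difference -2.47 ± 0.51, adjusted p = 0.0029), and Crabp2 by -4.77 and 0.60 (difference -5.37 ± 0.57, adjusted p = 3.4e-06). In the unmarked Terc-/- libraries Crabp2 stood at 1.58 to 2.75 TPM. Mfap5 and Cd248 had differences of -4.67 ± 0.59 and -3.66 ± 0.62. Dcn stood on the other side with 3.52 ± 0.60. Of 12 MHC class II genes 6 had a called difference, all below 0, with -3.84 ± 0.62 for H2-Aa (adjusted p = 4.3e-04). Igkv5-43, an immunoglobulin segment, also fell below the 519 effect, with 78.8, 127 and 0 TPM in the unmarked and 0 in all gaiwei-marked libraries, and its value rests on 2 unmarked libraries (difference -4.42 ± 1.30, and -3.40 and -3.24, neither called, without unmarked replicate 1 or 3). All libraries of the 519 comparison are Terc-/- and have the male pattern, so genotype, the kind of mark and the sex pattern cannot be told apart in these differences.

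Across all 10 groups the gaiwei-marked libraries held less Ctsk than any unmarked large-cell library. Ctsk was at 6510 to 11090 TPM in the 20-month large-cell group, 2469 to 6064 and 3998 to 4859 TPM in the 6-month and 1-month wild type, 2518 to 2995 and 1499 to 3576 TPM in unmarked Terc-/-, and 166 to 242 and 34.6 to 45.1 TPM in cultures of 2 days. The gaiwei-marked 52.1 to 74.4 TPM lay between the 2-day groups, with the 519-marked libraries on either side (23.5 to 30.02 TPM at 1 month and 81.99 to 154 TPM at 6 months). For Saa3 the order differed. The 2-day cultures stood at 265 to 1402 and 566 to 1224 TPM, with values that overlap those of unmarked large-cell groups, and the marked groups were the highest: gaiwei at 32540 to 81890 TPM, 519 at 24100 to 26370 TPM (1 month) and 34070 to 61130 TPM (6 months). The next group was unmarked 6-month Terc-/- at 2072 to 6463 TPM. Csf3 was at 456 to 541 TPM in the 6-month 519-marked group, 201 to 482 TPM with gaiwei and 40.04 to 61.2 TPM in the 1-month 519-marked group, and at most 23.4 TPM elsewhere.

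**Figure D5:**
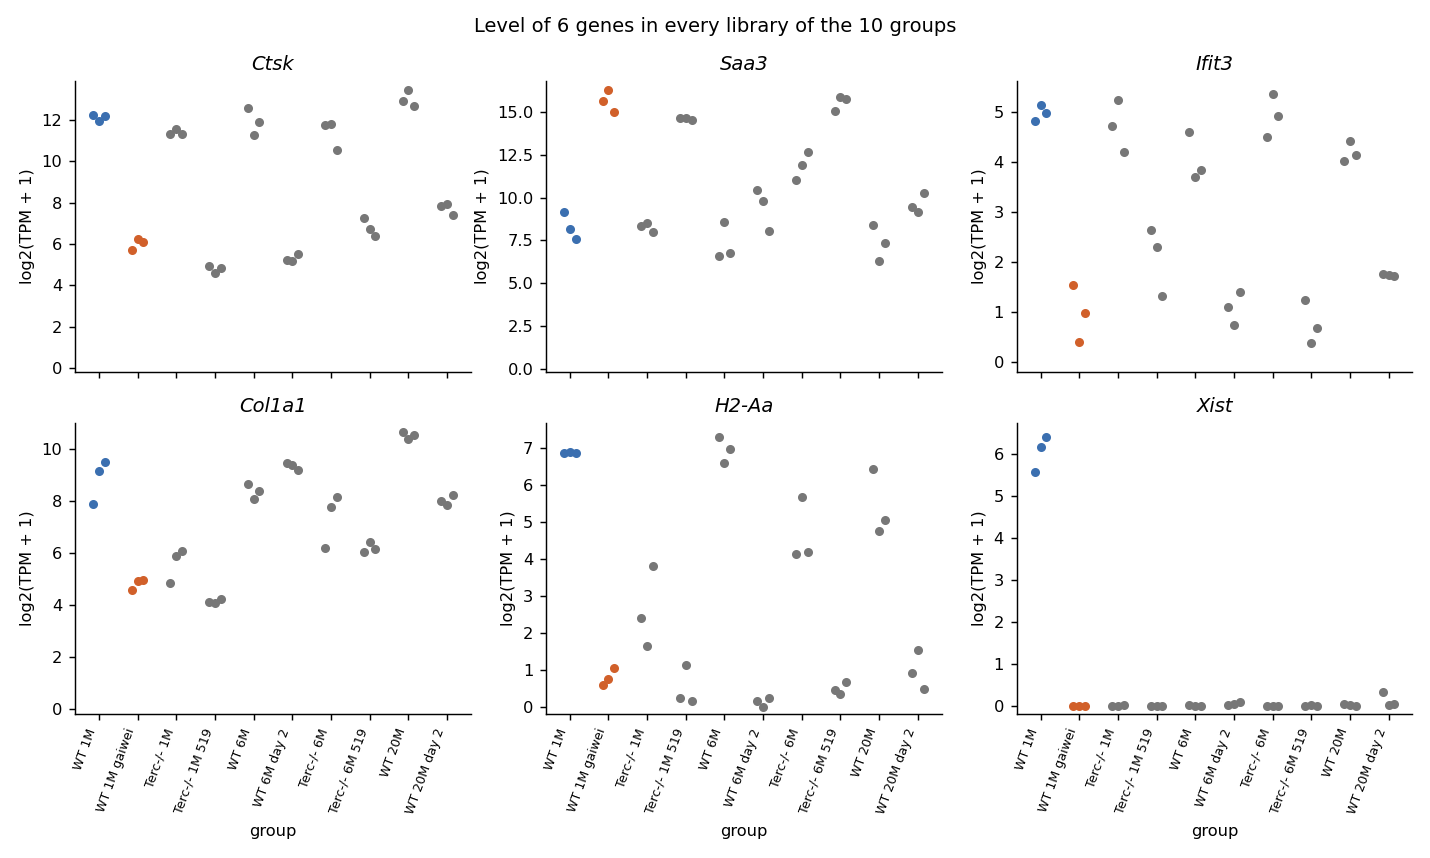
log2(TPM + 1) of 6 genes in each library of the 10 groups, with the unmarked 1-month wild type in blue, the gaiwei-marked libraries in orange and the other groups in grey. Ctsk and H2-Aa are low in marked and 2-day groups, Saa3 is highest in the marked groups, and Xist is above 1 TPM in the unmarked 1-month wild type alone.

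Among sex-linked genes, the 4 tested members of the Y-linked list were all higher in the gaiwei-marked libraries, Ddx3y for example at 16.9, 15.9 and 18.8 TPM against 0, 0 and 0.0222 TPM. Of all 7 tested genes on the Y chromosome 6 were called higher and 0 lower. Eif2s3x, an X-linked gene that escapes silencing, fell from 115, 181 and 179.6 TPM to 39.8, 38.3 and 50.9 TPM (-1.27 ± 0.11). Against the unmarked 6-month wild type the change of Ddx3y was 0.04, and both groups have the male pattern. In that comparison the changes of Lcn2, Saa3 and Dcstamp were 10.79, 8.77 and -4.82, and against the unmarked 1-month Terc-/- 7.89, 7.93 and -5.49. Of 392 tested X-chromosomal genes 74 were called higher and 106 lower, 45.9% in all, near the 46.6% of all genes tested.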

How the data were processed

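RNA-seq values for 45706 genes in 30 libraries (10 groups, 5 tables) were deposited by the authors as TPM, a unit read from the values, since each column sums to 1000000. HTSeq and mm10 are named in the submitters' processing notes with no version. For the aligner, nothing is stated in the sources read here. TPM keep no depth, so precision rests on 3 libraries per group. Gene IDs matched GENCODE M21 for 45143 genes, and 20240 genes were at 0 throughout.

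Groups came from the titles. Libraries were scaled by a trimmed mean of log ratios (30% of ratios and 5% of levels trimmed), log2(TPM + 1) was fitted with limma 3.58.1 in R 4.3.3 over all 10 groups (20 residual degrees of freedom) for the 12614 genes that averaged 1 TPM or more, and p-values were adjusted by Benjamini-Hochberg at 0.05. Tables and plots used Python 3.11.15, pandas 2.3.3, numpy 2.4.6 and matplotlib 3.10.9. In data simulated for the gaiwei comparison (12723 genes) the fit found 74 of 100 genes given a 2-fold change. Of 100 given a 4-fold change it found 95, and none of either set had the wrong sign. It called 11 of 12525 genes given no change. Most genes of that simulation were unchanged, whereas 5883 of the 12614 genes tested were called in the gaiwei comparison. How often unchanged genes are called when so many others change was not tested.

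The members and gene lists were chosen with earlier results of these data known. Named genes were the 15 highest and 15 lowest by log2 change (mean of at least 5 TPM, no overlap), the 5 highest and 5 lowest by difference from the 519 effect, any member of the osteoclast, acute phase, interleukin-1, chemokine and MHC class II lists, the sex-linked lists, Terc, and up to 4 members with the smallest p of other lists. Genes named outside that rule are said to have been chosen after their values were seen. Promoter windows were read from a RefSeq table (GRCm38.p6) and searched for chosen motif letters. Alternatives covered scaling, pseudocount, filter, variance model, a replicate block, other unmarked controls and leaving out each library.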

Additional observations from a re-analysis of the deposited data

Results flagged for a closer look

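For 69 of the 160 genes named here, the effect of the gaiwei mark in wild type differed from that of the 519 mark in Terc-/- at 1 month by limma's test of the difference itself (adjusted p under 0.05), and differences are given as gaiwei effect minus 519 effect on the log2 scale. Of the cytokines, chemokines and acute phase genes above 0, the differences were 2.07 for Ccl2, 2.99 for Ccl3, 3.75 for Ccl4, 3.01 for Csf3, 2.45 for Il12a, 1.55 for Il6, 1.58 for Il1r1, 2.10 for Il1rn, 2.46 for Lcn2, 3.52 for Wfdc17, 2.84 for Wfdc21, 4.02 for Stfa3 and 3.20 for U90926. Of the inflammatory enzymes, regulators and transport genes above 0, they were 2.77 for Nos2, 2.09 for Slc7a2, 1.60 for Ptges, 1.10 for Hmox1, 0.91 for Tnip1, 1.17 for Zc3h12a, 2.05 for Cebpb, 2.43 for Socs1, 0.90 for Socs3, 1.19 for Slc11a1, 0.81 for Slc3a2 and 1.91 for Mmp13.

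Of the osteoclast-related genes above 0, they were 1.32 for Adam8, 0.85 for Atp6v0c, 0.73 for Cd47, 0.96 for Esrra, 1.20 for Fcer1g, 0.74 for Fermt3, 1.04 for Id2, 1.12 for Igf1, 0.50 for Irf8, 0.86 for Junb, 1.51 for Mmp9, 0.87 for Rac2, 1.30 for Siglec15, 1.32 for Slc4a2, 0.73 for Syk and 0.73 for Tgfb1. Of the matrix and stromal genes they were -2.06 for Bgn, -2.47 for Col1a1, -5.37 for Crabp2, -3.66 for Cd248, -4.67 for Mfap5, -2.56 for Cthrc1 and 3.52 for Dcn. Of the MHC class II and dendritic cell genes they were -3.84 for H2-Aa, -2.43 for H2-Ab1, -3.29 for H2-Eb1, -2.17 for Cd74, -2.73 for Ccl22 and -2.46 for Ccr7. Of the remaining genes they were -1.70 for Clec7a, -1.46 for Csf1, -1.29 for Cttn, -4.42 for Igkv5-43, -2.63 for Il1r2, -2.31 for Phgdh, -1.41 for Pmaip1, -1.13 for Rgs12, -1.72 for Rtp4, -0.96 for Slc7a5 and -1.08 for Wnt10b. Sex-linked genes differed by -5.94 for Xist, 5.94 for Eif2s3y, 4.45 for Ddx3y and -1.14 for Eif2s3x, where the unmarked 1-month wild type alone has the Xist-expressing pattern. These calls depend on single libraries and settings: 16 of the 69 were lost without gaiwei-marked replicate 2, 14 without unmarked wild-type replicate 4, 13 without replicate 1 of the unmarked Terc-/- and 12 with no filter on low values, and no alternative tried lost more than 16. Single outlying values were not tested, since each group holds 3 libraries. Genotype, the kind of mark and the sex pattern differ together, so they cannot be told apart in these values.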

How the results depend on the processing

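For the gaiwei comparison, TPM as deposited called 1225 genes higher and 6250 lower. A fit of its 6 libraries alone (4 residual degrees of freedom) called 4877 of 12247 genes, 2652 higher and 2225 lower. Leaving out 1 of the 6 compared libraries gave 4851 to 6408 calls, 2557 to 3313 higher and 2221 to 3095 lower, and leaving out replicate 2 of the unmarked 6-month wild type, which enters this comparison only through the spread, gave 7109 (3969 higher and 3140 lower). For the difference from the 519 effect, TPM as deposited called 416 genes above 0. Without replicate 2 of the unmarked 6-month wild type that difference called 2337 genes (1113 above and 1224 below 0), and leaving out 1 library of the 4 groups gave 887 to 1770 calls, 431 to 907 above and 435 to 863 below 0, the lowest total without replicate 1 of the unmarked 1-month Terc-/- group.

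Replacing the unmarked 1-month wild type by the unmarked 1-month Terc-/- turned the direction of Acta2 (0.22), Atp6v0c (-0.25), Cald1 (0.11), Crabp2 (1.33), Csf1 (0.34), H2-Ab1 (2.09), Igf1 (-0.90), Il1r2 (0.011), Mfap5 (0.72) and Mmp14 (1.04), and Igkv5-43 was at 0. Of these, Crabp2, H2-Ab1, Igf1 and Mmp14 were called in the new direction, and the others were not called. Replacing the unmarked 1-month wild type by the unmarked 6-month wild type turned Clec7a (0.83) and Mmp14 (0.55), both called, and Igkv5-43 was again at 0. The cause was not tested. Of the 160 genes named, 21 more lost the call against the Terc-/- group and 6 against the 6-month wild type. With TPM as deposited none changed direction, Atp6v0c, Csf1r, Syk and mt-Atp6 lost the call (0.003, 0.06, 0.48 and 0.11), and Clcn7, Fos, H2-Ab1, Mmp14, Mmp9 and Tcirg1 were called lower (-0.996, -1.25, -1.36, -0.62, -0.63 and -0.72).

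Replicate numbers 1 and 3 occur in both groups, and the same-numbered libraries deviated together at r = 0.245 and 0.23, as did marked 3 and unmarked 4 at r = 0.28, and the labels tie the number to no animal or day, so the libraries share only a number. A fit with the number as a replicate block called 5480 genes, 2907 higher and 2573 lower. TPM hold no depth, so what depth limits is unknown.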
